A study of Arabidopsis thaliana with 2 samples.

Results

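Anthocyanins and flavonols are flavonoid pigments and sunscreens of plants that share their early enzymes and then part at the dihydroflavonols. Dihydroflavonol reductase takes these compounds towards the coloured anthocyanidins, and flavonol synthase takes the same compounds towards the flavonols. Glycosyltransferases of the UGT family then attach sugars to both classes, which makes them stable enough to be stored in the vacuole. In Arabidopsis stems anthocyanin colour is best known at the base of the inflorescence and varies with light, sugar and stress.

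The genes described here are 5 enzymes of these steps, found among the probe sets that the platform annotation assigns to a single gene. DFR (AT5G42800) encodes dihydroflavonol reductase, the entry to the anthocyanin branch. UF3GT (AT5G54060, also UGT79B1) has an older long name that calls it a flavonoid glucosyltransferase, and its enzyme is known to add xylose to the glucose of anthocyanins. UGT75C1 encodes the enzyme that puts a second glucose on anthocyanins, at another ring position. It is written only as its locus code, AT4G14090, in the tables used here. UGT78D1 (AT1G30530) encodes a rhamnosyltransferase of flavonols. UGT78D2 (AT5G17050) encodes the glucosyltransferase that attaches the first glucose to flavonols and also to anthocyanidins, so it serves both branches. Each of the 5 genes had 1 such probe set. In all, 13513 of the 22746 non-control probe sets named a single gene, and together they named 13355 different genes. The UGT genes are related in sequence, and whether any probe set took up signal from a relative was not tested.

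Stem RNA of Arabidopsis thaliana was hybridized to ATH1 GeneChips, on which a set of short oligonucleotides reads each transcript. There were 2 samples with 1 array each, 1 of wild-type plants and 1 of plants carrying 35S::AtC3H14, in which the 35S promoter, a viral promoter active in most plant tissues, drives the CCCH zinc finger gene AtC3H14. Both were Columbia (Col-0) plants, 30 days old, grown on soil with 16 h of light at 23 °C, and the stem was taken from its base to the third internode. The labels give neither the number of plants pooled nor the number of transgenic lines behind the overexpressor sample. The series addresses the transcription that AtC3H14 controls in the stem, in the context of the secondary wall regulator MYB46.

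Without replicates no difference below could be set against variation between plants, no p-value was computed, and all ratios are 35S::AtC3H14 over wild type. Low signals were limited by a floor of 104.0, set at the 40th percentile of the signals of both arrays without the controls, and a difference was called at 2-fold, a log2 ratio of 1 in either direction. The probe set of AtC3H14 (AT1G66810) went from a signal of 244 in wild type to 8655 in the overexpressor, the direction its label gives. The median log2 ratio over the 12826 probe sets above the floor on both arrays was 0.04, with an SD of 0.64. The spread that these arrays do offer is that between probe sets of one gene, whose SD was 0.35 on the log2 scale (117 probe sets, 58 genes), or 0.49 for the difference between 2 ratios. It leaves out plants, extractions and hybridizations. In stem RNA, fewer cells that make a transcript and less of it per cell cannot be told apart.

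The 3 genes of the anthocyanin branch had lower signals in the overexpressor, DFR most of all, while both 3-O-glycosyltransferases that act on flavonols had signals close to those in wild type. All 5 genes were above the floor on both arrays, so each has a measured ratio and none is a bound. The signal of DFR went from 2993 in wild type to 443 in the overexpressor, which left 14.8% of the wild-type signal. UF3GT went from 711 to 273, or 38.4% of wild type. UGT75C1 went from 519 to 339, or 65.3% of wild type. On the flavonol side the overexpressor array was the slightly brighter one for both genes. UGT78D1 went from 1137 to 1244, and UGT78D2 from 902 to 1101. The dimmest of these 10 signals, UF3GT in the overexpressor, was 2.62 times the floor, and signals of different probe sets are not compared in level.

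**Figure D1:**
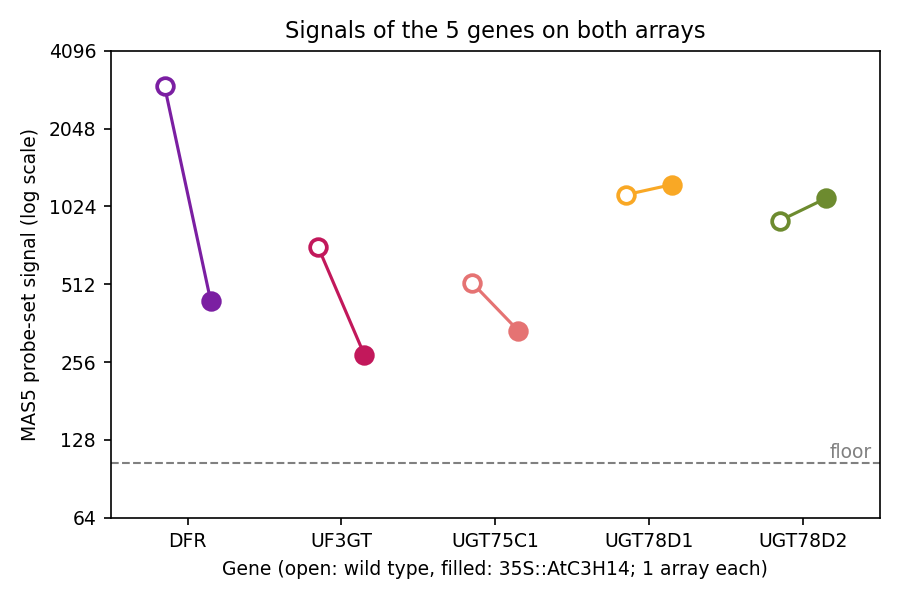
MAS5 signal (log scale) of each gene's probe set on the wild-type array (open) and the 35S::AtC3H14 array (filled), 1 array each, with the floor of 104.0 dashed. The lines of DFR, UF3GT and UGT75C1 run downward, from 2993 to 443 for DFR, and those of UGT78D1 and UGT78D2 run slightly upward.

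DFR was 6.76-fold lower in the overexpressor, a log2 ratio of -2.76. Of the 12826 probe sets above the floor on both arrays, 20 had a lower ratio, so that DFR stands at the far edge of these arrays. UF3GT was 2.61-fold lower (log2 ratio -1.38), and 2.35% of the probe sets were lower still. UGT75C1 was 1.53-fold lower, a log2 ratio of -0.61, which lies under 2-fold and has 13.3% of the probe sets below it. The ratio of UGT75C1 was larger than the spread of 0.35 between probe sets of one gene, though less than that of the other 2 anthocyanin genes. UGT78D1 had a log2 ratio of 0.13 and UGT78D2 one of 0.29, both inside that spread, with 57.2% and 68.7% of the probe sets below them. At 2-fold, 2 of the 5 genes were therefore called lower and none was called higher. Among all probe sets above the floor on both arrays 5.61% were called lower and 4.51% higher.

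**Figure D2:**
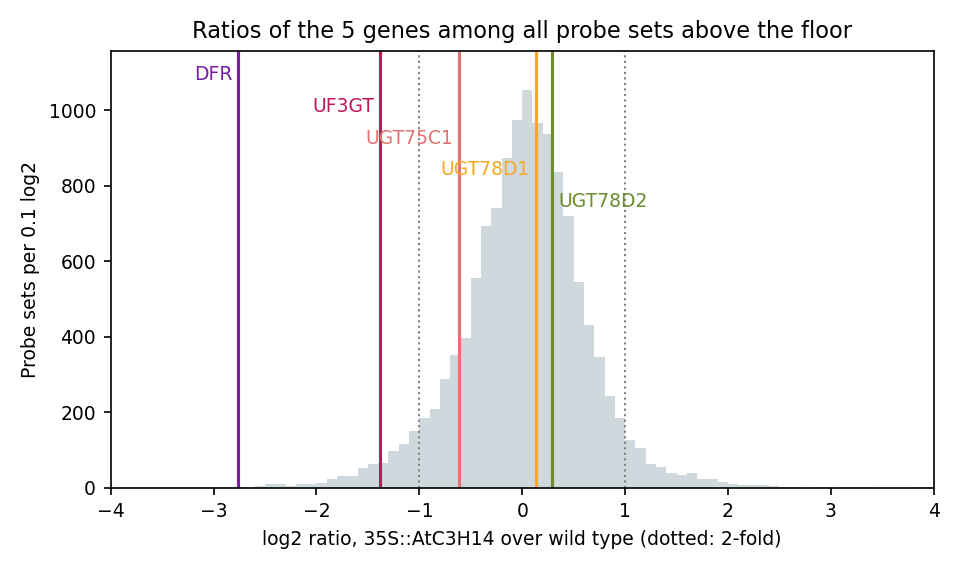
Histogram of the log2 ratios (35S::AtC3H14 over wild type) of the 12826 probe sets above the floor on both arrays, in bins of 0.1, with a vertical line for each gene and dotted lines at 2-fold. DFR at -2.76 lies in the thin left tail, UF3GT at -1.38 past the 2-fold line, UGT75C1 at -0.61 inside it, and UGT78D1 and UGT78D2 near the centre.

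The contrast between the anthocyanin and the flavonol sugar transfers was read as a difference of log2 ratios. UF3GT and UGT75C1, the glycosyltransferases that act on anthocyanins, had a mean log2 ratio of -0.998. UGT78D1 and UGT78D2 had a mean of 0.21. The difference was -1.21, a 2.31-fold gap between the 2 kinds of step. It is larger than the 0.35 that the spread between probe sets would give such a difference of 2 means of 2. That spread comes from probe sets of one gene and leaves out how far different genes differ. Over all probe sets above the floor on both arrays the log2 ratios had an SD of 0.64. Within the anthocyanin pair the ratios were not alike, since UF3GT lay 0.77 below UGT75C1 on the log2 scale. Within the flavonol pair the ratios of UGT78D1 and UGT78D2 differed by 0.16, less than the spread. With UGT78D2 left out, because it also takes anthocyanidins, the contrast was -1.13. With DFR added to the anthocyanin side it was -1.79.

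Taken gene by gene, the gap to the flavonol genes was widest for DFR, whose log2 ratio was 2.89 below that of UGT78D1 (a 7.40-fold gap) and 3.04 below that of UGT78D2 (8.25-fold). For UF3GT the gap was 2.85-fold to UGT78D1 and 3.18-fold to UGT78D2. For UGT75C1 it was 1.68-fold and 1.87-fold, so that no gap of this gene reached 2-fold. The order of the ratios from lowest to highest was DFR, UF3GT, UGT75C1, UGT78D1 and UGT78D2. Of the neighbours in this order, UGT78D1 and UGT78D2 alone were closer than the spread of 0.49 between 2 ratios. This spread, too, does not measure how far 2 different genes differ on these arrays. DFR lay 1.38 below UF3GT, and UGT75C1 lay 0.74 below UGT78D1. Multiplying an array by a constant moves all 5 log2 ratios equally, so a change in array scaling leaves these gaps as they are.

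The direction given for the flavonol genes does depend on scaling. The 18 probe sets for the spiked hybridization controls were brighter on the overexpressor array by a mean log2 difference of 0.52. Scaled to them, UGT78D1 had a log2 ratio of -0.39 and UGT78D2 one of -0.24, and UGT75C1 passed 2-fold lower at -1.14. DFR at -3.28 and UF3GT at -1.90 were lower still. The median of all probe sets above the floor moved to -0.46 with this scaling, so UGT78D1 and UGT78D2 again lay near the middle of the array, slightly above its median.

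**Figure D3:**
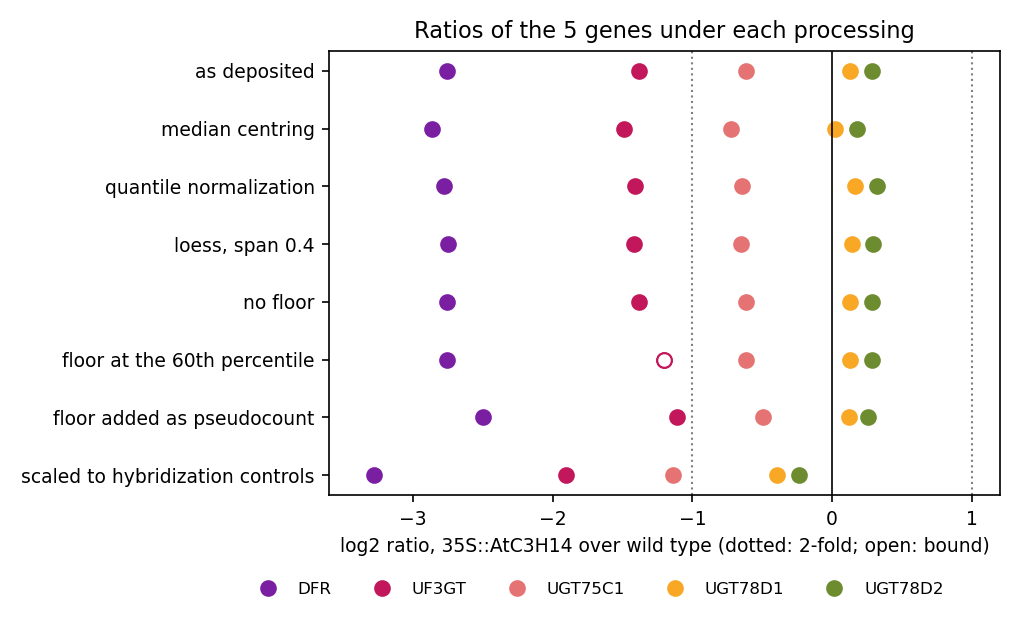
Log2 ratio of each gene (35S::AtC3H14 over wild type) as deposited and under 7 other ways of normalizing the arrays or treating low signals, with open circles for a bound and dotted lines at 2-fold. In every setting DFR and UF3GT lie past 2-fold lower and, but for the bound of UF3GT at the higher floor, whose place is not fixed, the 5 genes keep one order, while scaling to the hybridization controls moves all of them by 0.52 to the left.

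The wider pathway could be read only in part. Lists of early enzymes, the flavonol, anthocyanin and proanthocyanidin branches, the shared glucosylation step, activators and repressors held 72 genes. In the annotation used here, 12 of them were named alone by a probe set, the 5 above included. A probe set of its own has this meaning below. Since 8730 probe sets carried no gene name here, a listed gene without one may still be probed by the array. Of these 12, 8 were above the floor on both arrays, 1 on 1 array and 3 on neither. Of the 9 with a ratio or a bound, 2 were at least 2-fold lower, DFR and UF3GT, and 1 was at least 2-fold higher, beside 5.78% lower and 5.27% higher among all probe sets with a ratio or a bound. The median log2 ratio of the 8 measured pathway genes was -0.29, beside 0.04 for all measured probe sets. Both calls of lower come from the 5 genes above. The median lies between the ratios of UGT80B1 (-0.37) and CHIL (-0.20), which are not among the 5. Without the 5 genes, 4 had a ratio or a bound, of which 0 were 2-fold lower and 1 was 2-fold higher. The median of the 3 measured among them was -0.20. The other 60 genes, chalcone synthase, flavonol synthase, leucoanthocyanidin dioxygenase and the MYB and bHLH regulators among them, were not analysed singly here.

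In the early steps, CHIL, a chalcone isomerase-like protein that raises the flux into flavonoids, went from 551 in wild type to 479. Its log2 ratio of -0.20 lay inside the spread between probe sets of one gene. The early pathway is represented by this 1 gene of 13.

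On the anthocyanin branch, 4 of 11 genes had a probe set of their own. The fourth beside DFR, UF3GT and UGT75C1 was AT5MAT, which encodes a malonyltransferase of anthocyanin glucosides. Its signal went from 129 to 89.1, which is below the floor, and it was therefore at least 1.24-fold lower, a bound that leaves its size open. All 4 anthocyanin genes thus had the lower signal in the overexpressor, beside 46.7% of all probe sets above the floor on both arrays. Scaled to the hybridization controls the 4 genes also had the lower signal, with the median of all probe sets above the floor then at -0.46. DFR, UF3GT and UGT75C1 had it under every other alternative run.

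On the flavonol branch, 3 of 11 genes had a probe set of their own. AT1G06000, entered in the flavonol list as UGT89C1, a name that the tables used here do not carry, went from 281 in wild type to 594. It was 2.12-fold higher, a log2 ratio of 1.08, and was the gene called 2-fold higher. The call is narrow: the log2 ratio was 0.98 with the arrays centred on their medians, 0.86 with the floor added as a pseudocount, at least 0.95 with a higher floor, at the 60th percentile, and 0.56 when scaled to the hybridization controls. UGT78D3, a close relative that lies near UGT78D2 with 1 gene (AT5G17040) between them and encodes a flavonol arabinosyltransferase, had signals of 11.7 and 17.0, below the floor on both arrays, and was given no ratio.

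Genes of the proanthocyanidin branch, which colours the seed coat, and of the regulators added little. BAN, the anthocyanidin reductase that draws anthocyanidins into proanthocyanidins, had signals of 2.77 (wild type) and 10.2 (overexpressor), below the floor on both arrays. UGT80B1 (TT15), a sterol glucosyltransferase with a seed coat phenotype, went from a signal of 324 to 250, a log2 ratio of -0.37. HYH, a light-response bZIP factor related to HY5, had signals of 43.4 and 70.7, also below the floor on both arrays. None of the 14 listed repressors was named alone by a probe set in the annotation used here.

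**Figure D4:**
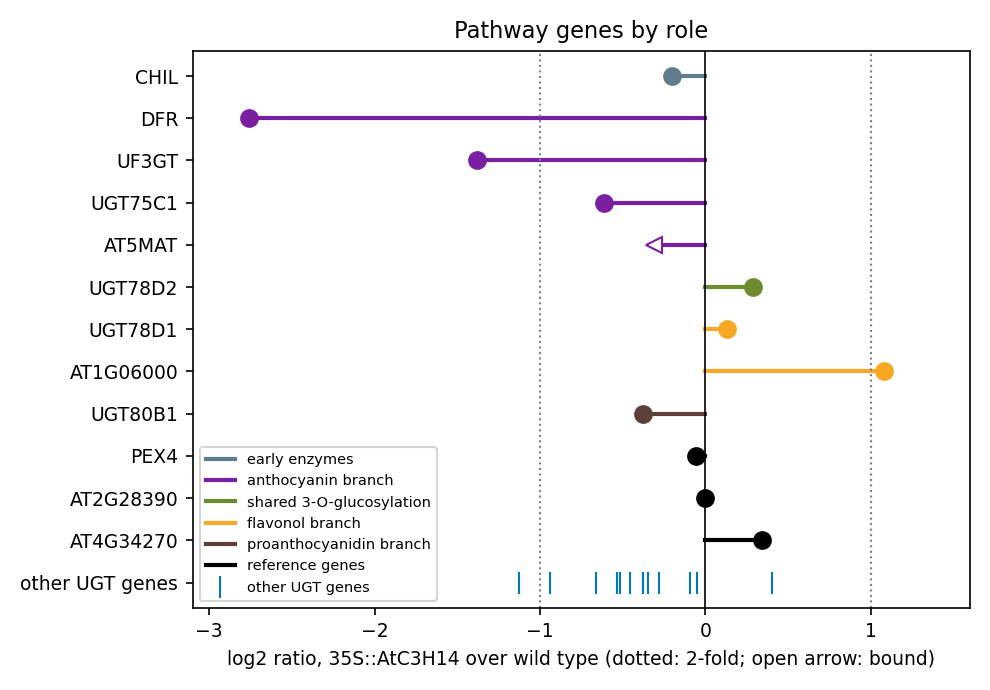
Log2 ratios (35S::AtC3H14 over wild type) of the pathway genes with a ratio or a bound, coloured by role, with 3 reference genes in black and the 13 other measured UGT genes as ticks, UGT80B1 among them. The 4 anthocyanin genes point left, the open arrow being the bound of AT5MAT, and UGT78D1, UGT78D2 and AT1G06000 point right.

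The UGT family as a whole gave a further comparison, since 4 of the 5 enzymes belong to it. By symbol, 47 UGT genes had a probe set of their own, 15 of them above the floor on both arrays, UGT78D1 and UGT78D2 included. Of the other 13, 12 had a log2 ratio below 0, with a median of -0.37 and a range from -1.13 to 0.40. Among all probe sets above the floor on both arrays 46.7% had a ratio below 0. UGT74B1, a glucosyltransferase of glucosinolate synthesis, was the exception among the 13, at 0.40. Like UGT71C5, UGT74D1 and UGT88A1 below, it was named after its values were seen. A further 4 UGT genes were above the floor on 1 array only, with bounds at log2 ratios of -0.71, -0.42, 0.08 and 0.63. Of the 15, UGT74B1 had the highest ratio and UGT78D2 and UGT78D1 the next highest. UGT71C5, at 2.18-fold lower, was the 1 of the 13 past 2-fold, a share near the 5.61% of all probe sets called lower. UF3GT, with a log2 ratio of -1.38, lay below all 15, and UGT75C1, at -0.61, lay within their range, between UGT74D1 at -0.53 and UGT88A1 at -0.66. AT1G06000, listed as UGT89C1 but without a UGT symbol here, lay above all 15 at 1.08. The signs of these ratios depend on the array scaling, and the order does not depend on a constant factor.

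The genes with the ratio nearest to each of the 5 were taken from 954 genes with a symbol and a single probe set above the floor on both arrays. With 2 arrays the likeness is only that of 1 log2 ratio. Among these 954 genes DFR had no close neighbour: TBL26, of a family that includes wall acetyltransferases, and ATL8, a RING-type ubiquitin ligase, were 0.45 and 0.57 away. Other probe sets did lie closer, since the bin from -2.8 to -2.7 that holds DFR had 3 of all those above the floor. UF3GT was nearest to CML41, a calmodulin-like protein, and PRXR1, a peroxidase. UGT75C1 was nearest to psbA, the plastid gene of a photosystem II core protein, and ANK1. UGT78D1 was nearest to rpl32, a plastid ribosomal protein gene, and LCB2, a subunit of serine palmitoyltransferase. UGT78D2 was nearest to IGPD, an enzyme of histidine synthesis, and TRZ1, a tRNA-processing enzyme. For the last 4 genes both neighbours lay within 0.01.

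Markers of stem tissues were read beside these values. The 3 measured xylem and fiber genes of 10 had log2 ratios from -0.45 to -0.02, and their summed signal went from 9937 to 9039. The 3 measured photosynthetic genes of 5 had ratios from -0.32 to 0.09 and sums of 38276 and 36622. In the epidermis list WSD1, a wax ester synthase and the 1 gene of 5 with its own probe set, went from 11.3, below the floor, to 466, at least 4.48-fold higher. In the phloem list SWEET11, a sucrose exporter and the 1 gene of 4 with its own probe set, went from 5346 to 407, which is 13.1-fold lower. A9 (AT5G07230), an anther gene and the 1 flower or seed marker of 7 with its own probe set, was below the floor on both arrays. The 3 reference genes had ratios from -0.05 to 0.34. SWEET11 thus differed in the direction of the anthocyanin genes and WSD1 in the opposite one, and the part of epidermal or phloem tissue in the anthocyanin values was not tested.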

How the data were processed

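Each deposited intensity is a linear probe-set signal that the authors computed with MAS5 (version not given in the sources used here), per the submitters' processing notes. The 2% trimmed mean was 500.04 on each array, so a change common to all transcripts would be hidden. Of 22810 probe sets, 64 controls were set apart. Of the rest, 13513 named 1 gene in the platform annotation, 503 named several and 8730 are unnamed here. Symbols came from the TAIR10.1 gene table, and AT4G14090 and AT1G06000 carried no name there. No coordinates are printed, since no source names the build behind the array.

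Log2 ratios were computed with pandas 2.3.3 and numpy 2.4.6, and the code was tested on simulated data. A signal below the floor on 1 array gave a bound against the floor, and below it on both gave no ratio. With 1 array per group there is no test, standard error or p-value, and the number of arrays limits the precision. Alternatives were median centring, quantile normalization, loess with a span of 0.4, scaling to the hybridization controls, no floor, a floor at the 60th percentile, the floor as pseudocount, a 1.5-fold threshold, and leaving out probe sets of types _s_at and _x_at. Named genes were the 5 enzymes, all listed pathway genes with their own probe set, AtC3H14, the marker and reference genes with their own probe set, and the 2 genes nearest in ratio to each of the 5. UGT74B1, UGT71C5, UGT74D1 and UGT88A1 fall outside this rule and were named after their values were seen. The members, lists and alternatives were chosen with earlier results of these data known. Protein and promoter sequences were not used here.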

Additional observations from a re-analysis of the deposited data

How the results depend on the processing

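Of 35 values (5 genes under 7 alternatives), 30 stayed within 0.35 of the log2 ratio as deposited, and none past 2-fold changed sign. Many of the 30 had little room to move. Leaving out the floor changed no gene, the higher floor changed UF3GT alone, and median centring shifted all genes by one constant. The 5 that moved all came from scaling to the hybridization controls, which lowers each by 0.52 by construction: DFR to -3.28, UF3GT to -1.90, UGT75C1 to -1.14, UGT78D1 to -0.39 and UGT78D2 to -0.24. The anthocyanin minus flavonol contrast of -1.21 ranged from -1.27 to -0.99 over these alternatives, where the value at the higher floor (-1.12) is a bound because UF3GT is then below it in the overexpressor. Median centring and the hybridization-control scaling multiply an array by a constant and so cannot change the contrast. Adding DFR took the contrast to -1.79. The count of pathway genes 2-fold lower was 2, or 3 with the hybridization-control scaling. At the 1.5-fold threshold 3 were lower. The share of all probe sets called is not given for the alternatives. The count 2-fold higher, 1 as deposited, was 0 with median centring, 0 with the hybridization-control scaling, 0 with the floor at the 60th percentile, 0 with the pseudocount and 2 with no floor, the second being BAN, whose signals lie far below the floor. For the other pathway genes with a ratio or bound, 24 of 27 values stayed within the spread, and the 3 that moved came from the hybridization-control scaling. No paired analysis was possible because each group had 1 array, which also prevented leaving arrays out. Low signal limits the reading of AT5MAT, UGT78D3, BAN and HYH.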

Other observations

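One further probe set was annotated to 2 genes of the anthocyanin list together and was assigned to neither. Its signal went from 475 in wild type to 318, a log2 ratio of -0.58, which lies under 2-fold. This is close to the ratio of UGT75C1, which has 13.3% of the measured probe sets below it. The direction is that of the 4 anthocyanin genes with a probe set of their own, and of 46.7% of all measured probe sets.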
